A study of Homo sapiens with 6 samples.

Results

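Interferon-stimulated genes are the genes that cells switch on when interferon reaches their receptors, and 39 of them were followed here across 6 RNA sequencing libraries of HaCaT cells, human skin keratinocytes that grow as an immortal line. The 39 were chosen by name, as textbook antiviral effectors and regulators, with no threshold on their values but with earlier results of these data known. All 39 were found among the 19847 genes listed, all exceeded 1 cRPKM (corrected RPKM, a read count set relative to the effective length of the gene and to the library's total) in at least 1 library, and all were tested. All cells expressed the photolyase of the marsupial Potorous tridactylus that splits cyclobutane pyrimidine dimers, the main DNA lesion left by UVC, when visible light drives it. The control group was untreated, with the photolyase inactive. The UVC group received 15 J/m2 at 254 nm, also with the photolyase inactive, and was harvested 6 h later. The active photolyase group received the same UVC and, in addition, 2 h of white light, and was also harvested 6 h after UVC. Each group held 2 libraries. No group received white light without UVC, so light and lesion removal cannot be told apart in the active photolyase group, and every group is the same engineered line. The labels do not say whether replicates were separate cultures, so p-values reflect only how far the libraries of a group differ, and that spread may be technical.

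Interferons of type I (such as interferon beta) and type III (the lambda interferons, which act mainly on epithelia such as skin) bind different receptors but share the kinases JAK1 and TYK2. Signalling by these kinases assembles the complex ISGF3, of which STAT2 and IRF9 are subunits. ISGF3 binds the interferon-stimulated response element (ISRE) in the promoters of its target genes, and the gamma-activated site (GAS) is a separate promoter element of interferon responses. Keratinocytes keep many of these genes on at a low level and raise them on viral infection, and their products bind viral RNA, cleave or edit nucleotides, trap virions at membranes or tag proteins with ISG15.

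The ISRE is shown first because it is the sequence by which the members are known to be regulated together. RefSeq promoter windows (build GRCh38.p14, 250 bases before to 50 after each annotated start) existed for 31 of the 39 members. The core searched was GAAANNGAAA on both strands, counting overlapping matches. It occurred in 22 of those 31 members (71%) and in 4.38% of the 27305 genes with a window. The GAS core, TTCNNNGAA, which is its own reverse complement, occurred in 10 members (32.3%) and in 9.38% of all genes. Members without an ISRE match in the window were OAS1, CMPK2, HERC6, STAT2, IRF1, IRF9, IFI35, XAF1 and SAMD9L, and of these OAS1, IRF1, IRF9 and IFI35 held a GAS match. The stretches below cover members that behaved differently in the libraries, and capitals mark the ISRE matches, as the core or as its reverse complement.
IFIT1, chr10:89392453-89392545, plus strand, starting 170 bases before the transcript: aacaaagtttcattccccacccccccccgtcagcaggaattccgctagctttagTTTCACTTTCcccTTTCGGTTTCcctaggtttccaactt
ISG15, chr1:1013327-1013422, plus strand, starting 170 bases before: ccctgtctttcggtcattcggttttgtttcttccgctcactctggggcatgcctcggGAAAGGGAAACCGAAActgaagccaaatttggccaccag
IFI6, chr1:27672219-27672362, minus strand, starting 170 bases before: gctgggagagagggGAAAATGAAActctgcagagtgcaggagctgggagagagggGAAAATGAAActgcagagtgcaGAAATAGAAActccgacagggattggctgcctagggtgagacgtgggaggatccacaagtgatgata
SAMD9, chr7:93118024-93118149, minus strand, starting 170 bases before: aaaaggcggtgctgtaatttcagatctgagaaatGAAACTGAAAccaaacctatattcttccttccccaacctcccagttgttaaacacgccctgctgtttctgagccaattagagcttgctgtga
IFI44, chr1:78649669-78649788, plus strand, starting 120 bases before: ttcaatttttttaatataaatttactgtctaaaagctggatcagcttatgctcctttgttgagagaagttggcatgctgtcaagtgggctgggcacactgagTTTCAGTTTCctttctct
ISG20, chr15:88638937-88638966, plus strand: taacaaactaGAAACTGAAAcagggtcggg
PARP14, chr3:122680800-122680829, plus strand: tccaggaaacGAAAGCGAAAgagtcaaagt
DTX3L, chr3:122564322-122564351, plus strand: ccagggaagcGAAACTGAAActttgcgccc
PARP9, the same 30 bases on the minus strand: gggcgcaaagTTTCAGTTTCgcttccctgg

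IFIT1 held 2 separate matches, which begin at positions -116 and -103 from its start, ISG15 held 2 that overlap in 1 run, and IFI6 held 3. SAMD9, IFI44, ISG20 and PARP14 each held 1 in the window shown. DTX3L and PARP9, which lie head to head, share 1 match, which begins at -6 from the DTX3L start and runs across it, and at -41 from a PARP9 start. A match describes letters only and says nothing of binding in these cells.

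**Figure D1:**
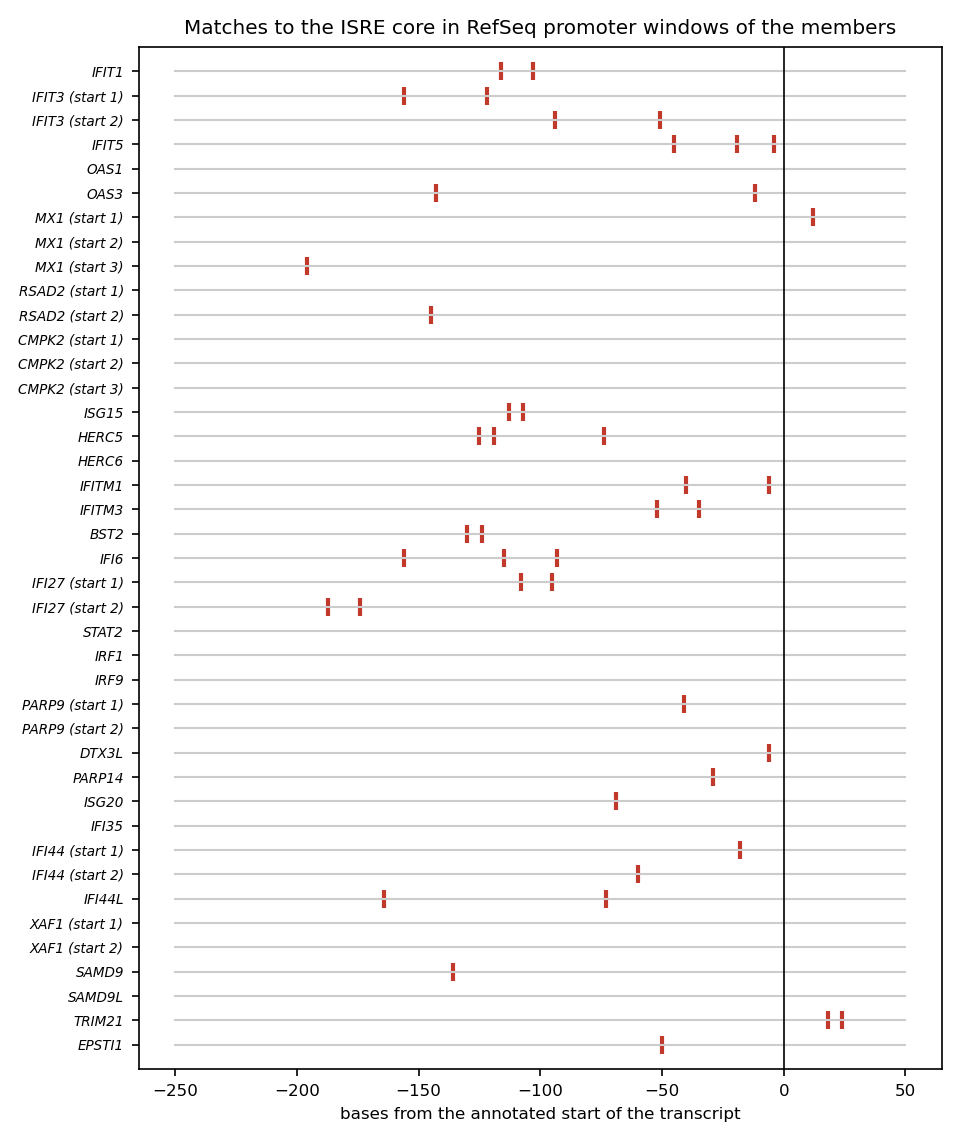
Positions of ISRE core matches in the RefSeq promoter windows of 31 members. The x axis gives bases from the annotated transcript start (0), each grey line is 1 window of 300 bases, red ticks mark the first base of a match, and genes with several annotated starts have several lines. Matches in 22 members lie mostly upstream of the start, and in TRIM21 they lie 18 and 24 bases downstream.

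Total counts ran from 57669389 to 70005705 per library, and each member was covered by at least 772 reads (IFI44L, control). Levels below are scaled cRPKM, the deposited cRPKM divided by a TMM factor (trimmed mean of M values, a scaling that takes most genes as unchanged). That assumption is in doubt here, since under TMM 42.5% of the genes tested were called higher and 43.1% lower after UVC. The scaling matters in this series: with library totals in its place, the median log2 fold change over all 11926 genes tested became 0.42 for UVC against control, -0.34 for active photolyase against UVC and 0.12 for active photolyase against control. Under TMM these medians were 0.00, -0.04 and 0.01. Changes are therefore relative to the bulk of transcripts, and fewer cells and less RNA per cell cannot be told apart in such bulk samples. All 10 keratinocyte markers were expressed, whereas 6 of 7 melanocyte, 7 of 9 fibroblast and 7 of 11 leukocyte markers stayed under 1 scaled cRPKM in every library. TYR, MS4A1 and NKG7 were at 0 throughout. The summed leukocyte list ran from 133 to 146 in the control libraries, 182 to 183 in the UVC libraries and 189 to 199 in the active photolyase libraries, mostly from CD74 and CD68, while PTPRC did not exceed 0.045 in any library, and the part of these markers in the results was not tested.

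The 2 control libraries differed from each other in the interferon-stimulated genes before any treatment is considered. Control replicate 2 was the higher for 37 of 39 members, with a median log2 difference of 0.27 (from -0.12 to 0.55), although it was the higher for only 50.1% of all genes tested. Active photolyase replicate 2 was likewise the higher for 37 of 39, by a median of 0.10, against 49.6% of all genes. The UVC libraries showed no such tilt, with replicate 2 higher for 20 of 39 and a median of 0.00. Results that rest on the control libraries are given below with and without each of them where it matters.

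**Figure D2:**
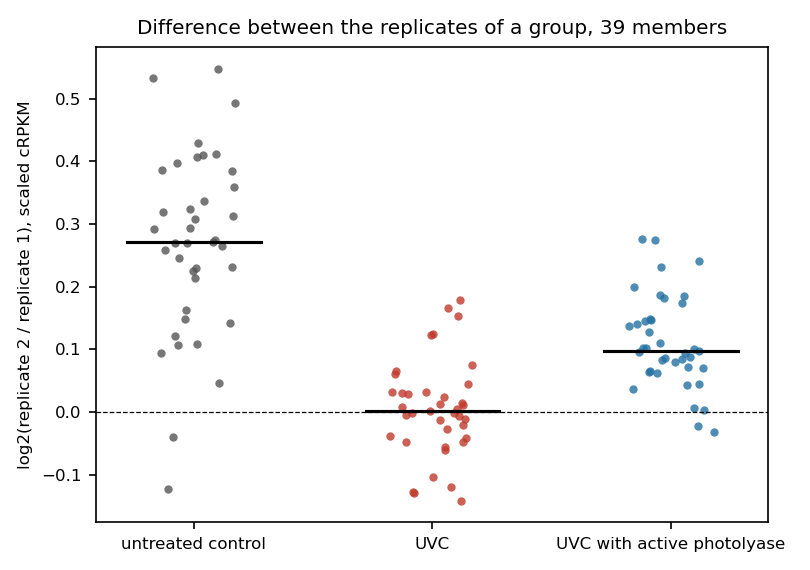
Difference between the replicates of each group for the 39 members. Each point is 1 gene, the y axis is log2 of replicate 2 over replicate 1 in scaled cRPKM, and black bars are medians, at 0.27 (control), 0.00 (UVC) and 0.10 (active photolyase).

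The members were already well expressed in untreated cells. The median member stood at 77.5 scaled cRPKM in control, 65.9 in the UVC group and 105 in the active photolyase group, which placed it at percentile 90.7, 90.7 and 93.2 of the genes tested. Levels spanned IFI44L at 6.18 to IFITM3 at 851 in control. After UVC they spanned HERC5 at 9.85 to IFITM3 at 1298, and with active photolyase IFI44L at 11.4 to IFITM3 at 1120. Members above 100 scaled cRPKM numbered 15, 13 and 20 in the 3 groups. The mean was highest with active photolyase for 26 members, after UVC for 11 and in control for MX2 and PARP9. This split is the one under TMM, and the matching shares of all genes were not counted. Among the 26, IFI6, IFI27, IRF7 and PARP14 were lower than after UVC with library totals (log2 fold change -0.23, -0.26, -0.23 and -0.19). PARP9 was at 0.01 between control and active photolyase with library totals.

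**Figure D3:**
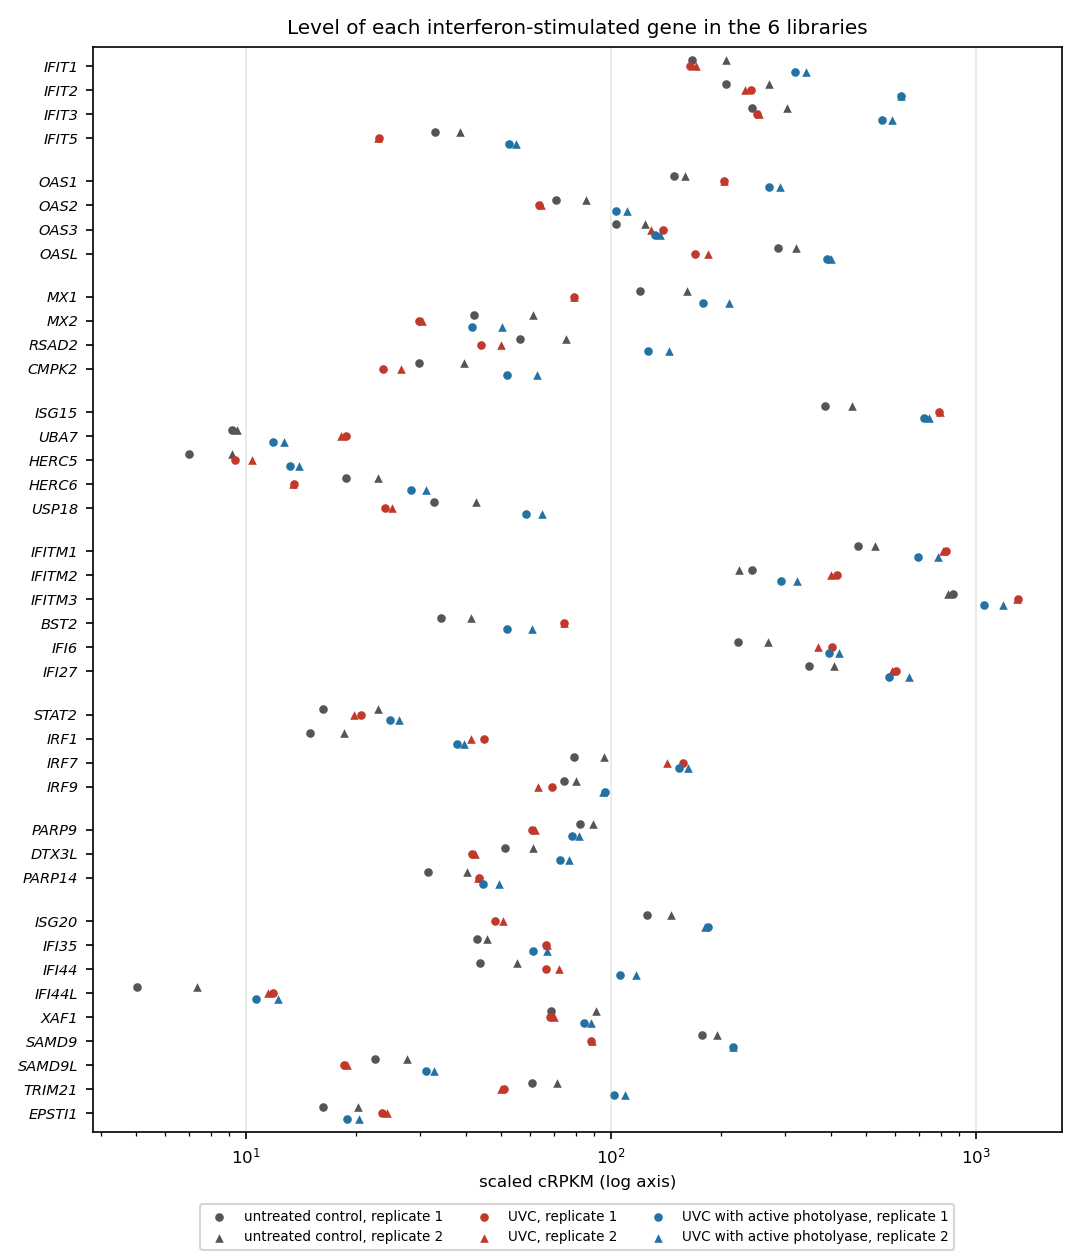
Level of each of the 39 members in the 6 libraries, grouped by role. The x axis is scaled cRPKM on a log scale, colours give the group and marker shapes the replicate. Blue points (active photolyase) lie to the right of grey points (control) in most rows, while red points (UVC) lie to the left in some and to the right in others.

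Over the 39 members, some genes were higher and others lower after UVC, and all but 4 were called higher in the active photolyase group than in control. Between control and UVC, 18 members rose (46.2%, against 42.5% of all genes tested) and 16 fell (41%, against 43.1%), with a median log2 fold change of -0.00. Those shares are near the background of all genes. Between UVC and active photolyase, 24 members rose (61.5%, against 39.2% of all genes) and 5 fell (12.8%, against 39.9%), with a median of 0.46. Between control and active photolyase, 35 members rose (89.7%, against 33% of all genes) and none fell (against 32.9%), with a median of 0.53. The 3 comparisons share libraries in pairs, so they are not independent. Calls are edgeR quasi-likelihood tests with an adjusted p under 0.05 over all 11926 genes.

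With library totals, the split for UVC against control became 24 higher and 7 lower (background 59.5% and 29.7%). For active photolyase against UVC it became 20 higher and 14 lower (background 27.8% and 58.3%), and against control 37 higher and none lower (background 43.9% and 23.8%). Of the 39, 18 were called higher and 5 lower after UVC under all 5 scalings tried (TMM, library totals, DESeq2 size factors, and limma on the deposited cRPKM as it stands or centred on the library median), and 9 changed sign between scalings (IFIT1, IFIT2, IFIT3, OAS2, IRF9, DTX3L, XAF1, SAMD9L and TRIM21). For active photolyase against UVC, 19 were higher and 5 lower under all 5 scalings. For active photolyase against control, 35 were higher under all 5. The share of all genes called alike under all 5 was not counted. The 5 are not separate checks, since cRPKM is already set relative to the library's total. Limma on it as it stands gave 23 higher and 5 lower after UVC, near the counts with library totals. DESeq2 size factors gave 18 and 17, near those with TMM. Without control replicate 1 the median for UVC against control was -0.18, and without control replicate 2 it was 0.20.

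**Figure D4:**
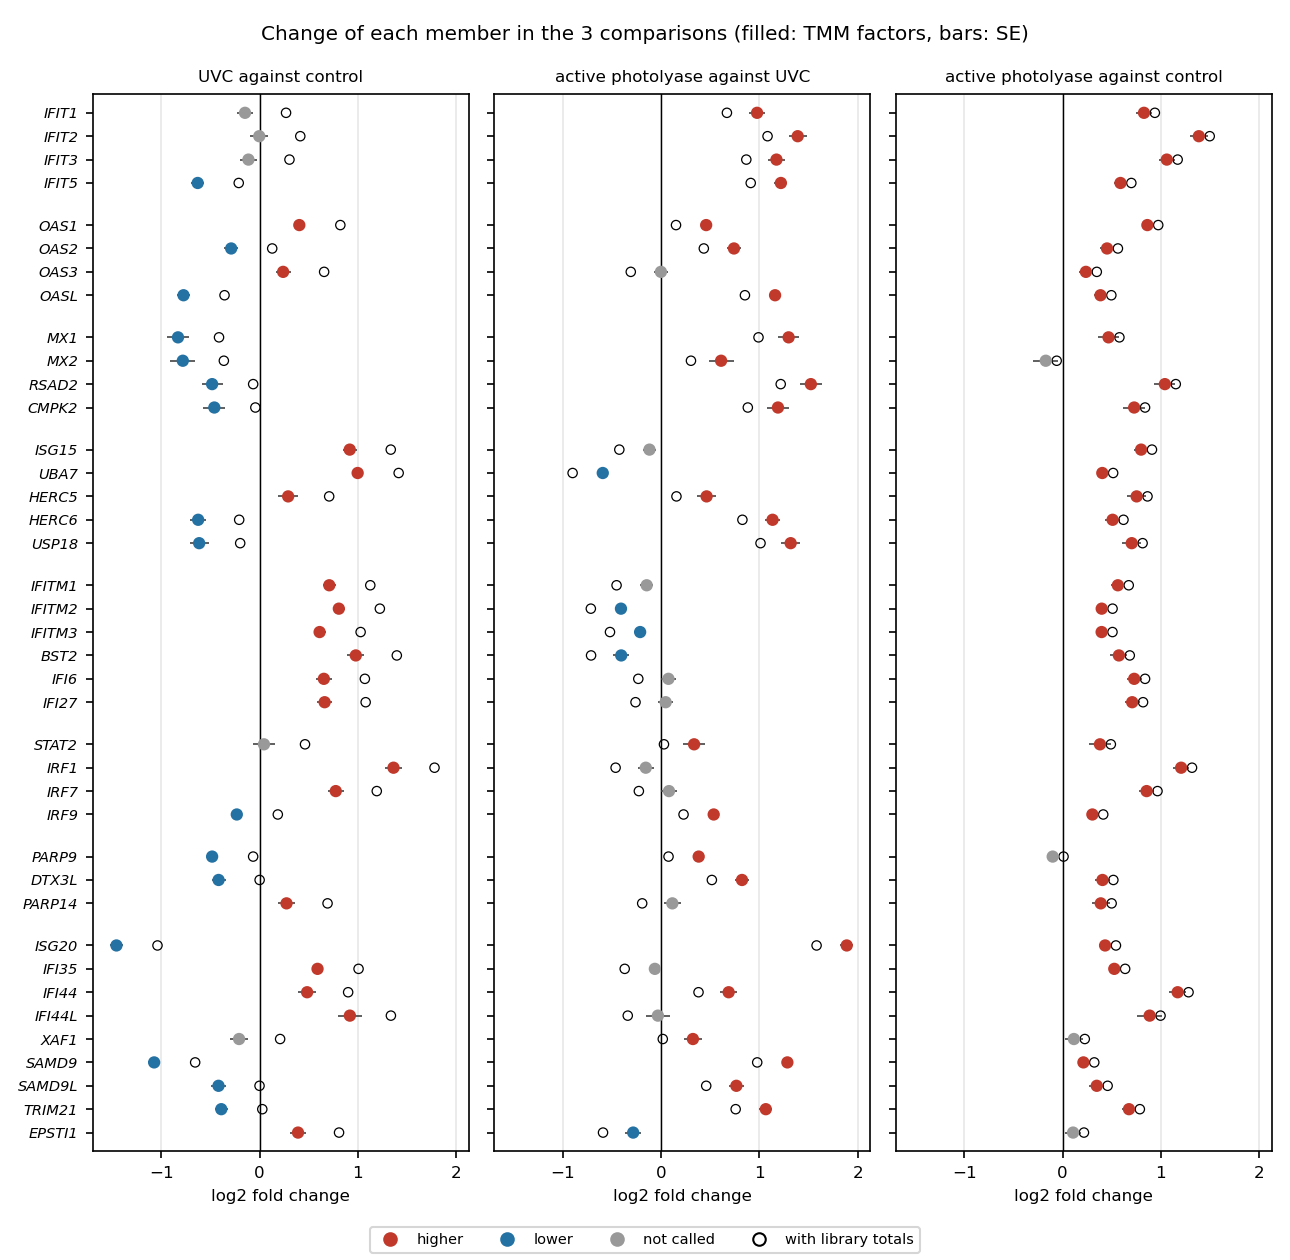
Log2 fold change of each member in the 3 comparisons. Filled points are edgeR estimates with TMM factors (red higher, blue lower, grey not called), horizontal bars are SE, and open circles are the estimates with library totals. The left panel holds 18 higher and 16 lower members, the middle 24 and 5, and the right 35 higher and none lower.

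The membrane and mitochondrial restriction proteins were the role group in which all 6 members rose after UVC, under all 5 scalings tried. Of all genes tested, 42.5% rose with TMM and 59.5% with library totals. These 6 are among the 13 members of shortest effective length, and of all genes in that length range (339 to 1789 bases) 58% rose. The part of length in this result was not tested. IFITM1, IFITM2 and IFITM3 block fusion of enveloped viruses with cell membranes, BST2 (tetherin) holds budding virions at the surface, and IFI6 and IFI27 are small hydrophobic proteins of the endoplasmic reticulum and mitochondria. IFITM3, the most abundant member, stood at 863 and 840 scaled cRPKM in the control libraries, 1303 and 1293 in the UVC libraries and 1053 and 1187 in the active photolyase libraries. The 3 groups did not overlap, and the active photolyase libraries lay between the others. The change after UVC was 0.61 in log2 (SE 0.060, edgeR adjusted p = 3.89e-07), and active photolyase lay 0.21 below UVC (log2 fold change -0.21, adjusted p = 0.00507).

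IFITM2 stood at 244 and 224 in the control libraries, 415 and 401 in the UVC libraries and 293 and 323 in the active photolyase libraries, with no overlap between groups. It rose after UVC by 0.81 in log2 (SE 0.060, edgeR adjusted p = 1.84e-08) and was lower with active photolyase than after UVC (-0.41, SE 0.059, adjusted p = 2.53e-05). The same order of groups held for BST2, with a rise of 0.98 after UVC and a difference of -0.41 between active photolyase and UVC. IFITM1, IFI6 and IFI27 rose after UVC by 0.71, 0.65 and 0.66, and their differences between active photolyase and UVC (-0.15, 0.07 and 0.05) did not pass the test under TMM. With library totals all 6 were lower with active photolyase than after UVC, so that the sign for IFI6 and IFI27 flips with the scaling. Against control all 6 rose with active photolyase, by 0.40 to 0.73 in log2. The IFITM genes are near-identical neighbours, and how shared reads were divided among them is not given in the sources used here, so the value of a single IFITM gene is uncertain.

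ISG15 is a ubiquitin-like protein that is joined to other proteins, UBA7 is its activating enzyme, HERC5 its main ligase, HERC6 a related ligase, and USP18 removes ISG15 and also blocks signalling at the interferon receptor. ISG15 itself stood at 385 and 457 scaled cRPKM in the control libraries, 793 and 795 in the UVC libraries and 721 and 743 in the active photolyase libraries. It rose 1.89-fold after UVC (log2 0.92, SE 0.070, edgeR adjusted p = 2.38e-08). Although the UVC and active photolyase libraries did not overlap, their difference of -0.12 did not pass the test (adjusted p = 0.129), and with library totals it was -0.43 and did.

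UBA7 stood at 9.14 and 9.43 in the control libraries, 18.8 and 18.2 in the UVC libraries and 11.8 and 12.7 in the active photolyase libraries. Both UVC libraries lay far above control (2.00-fold, log2 1.00, SE 0.057, edgeR adjusted p = 1.11e-09) and those with active photolyase lay in between (-0.59 against UVC, adjusted p = 3.69e-07). HERC6 took the other direction, at 18.7 and 23.0 in the control libraries, 13.5 and 13.5 in the UVC libraries and 28.2 and 31.1 in the active photolyase libraries. It fell after UVC by 0.63 in log2 (SE 0.080, edgeR adjusted p = 5.82e-06) and was 2.19-fold higher with active photolyase than after UVC (adjusted p = 1.79e-08). The fall of HERC6 was not called with limma on the deposited cRPKM as it stands. USP18 followed the same order of groups as HERC6, with -0.62 after UVC and 1.32 between active photolyase and UVC, and its fall after UVC was not called with library totals. HERC5 rose after UVC by 0.29 and again by 0.46 between UVC and active photolyase, the latter not called with library totals. All 5 genes of the ISG15 system rose against control with active photolyase, by 0.40 to 0.80.

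Among the transcription factors, IRF1, which many stimuli induce early, and IRF7, the factor that amplifies interferon transcription, rose after UVC under all 5 scalings. IRF1 stood at 15.0 and 18.6 scaled cRPKM in the control libraries, 44.8 and 41.3 in the UVC libraries and 37.7 and 39.6 in the active photolyase libraries. Its 2.57-fold rise after UVC (log2 1.36, SE 0.082, edgeR adjusted p = 1.94e-09) had the largest log2 value among the 39 members in that comparison. The difference between active photolyase and UVC, -0.16, did not pass the test (adjusted p = 0.0841).

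IRF7 stood at 79.4 and 95.8 in the control libraries, 157 and 142 in the UVC libraries and 154 and 163 in the active photolyase libraries, so both irradiated groups lay above control and overlapped each other. STAT2 and IRF9 are subunits of ISGF3. IRF9 stood at 74.5 and 80.4 in the control libraries, 68.8 and 62.9 in the UVC libraries and 96.2 and 94.8 in the active photolyase libraries, with no overlap. It fell by 0.23 in log2 after UVC under TMM (edgeR adjusted p = 0.00182) but rose by 0.19 with library totals, and it was higher with active photolyase than after UVC under all 5 scalings (0.53, SE 0.057, adjusted p = 1.34e-06). STAT2 did not pass the test after UVC (0.04, adjusted p = 0.71), and without control replicate 1 its value was -0.18 (adjusted p = 0.01), since its control libraries stood apart at 16.3 and 22.9. Against control, all 4 transcription factors rose with active photolyase, from 0.30 for IRF9 to 1.21 for IRF1. The call for STAT2 was lost under at least 1 alternative (adjusted p up to 0.0897).

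IFIT1 binds viral RNA whose cap lacks methyl marks and holds it back from translation, and IFIT2, IFIT3 and IFIT5 belong to the same family. IFIT2, the most abundant over the 6 libraries, stood at 207 and 270.2 scaled cRPKM in the control libraries, 242 and 233 in the UVC libraries and 622 and 624 in the active photolyase libraries. The UVC libraries lay within the range of control, and both active photolyase libraries lay above every other library. The UVC change of -0.00 (SE 0.091, edgeR adjusted p = 0.97) became 0.41 with library totals (adjusted p = 0.00055), and without control replicate 1 or 2 it was -0.18 and 0.20 (adjusted p = 0.00548 and 0.00309). The rise between UVC and active photolyase was 2.62-fold (log2 1.39, SE 0.093, adjusted p = 1.01e-08).

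IFIT5 stood at 32.9 and 38.7 in the control libraries, 23.2 and 23.0 in the UVC libraries and 52.6 and 55.0 in the active photolyase libraries, with no overlap. It fell after UVC by 0.63 in log2 (SE 0.067, edgeR adjusted p = 8.34e-07), was called lower under all 5 scalings, and was 2.33-fold higher with active photolyase than after UVC (adjusted p = 1.23e-09). IFIT1 and IFIT3 overlapped control after UVC (-0.15 and -0.11, neither called), and with library totals both were called higher, at 0.27 and 0.30. They rose between UVC and active photolyase by 0.98 and 1.17 in log2. Against control all 4 IFIT genes rose with active photolyase, by 0.59 to 1.39.

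OAS1, OAS2 and OAS3 make a nucleotide messenger on sensing double-stranded RNA, and OASL is a relative without that enzymatic activity. OASL, the most abundant over the 6 libraries, stood at 286 and 321 scaled cRPKM in the control libraries, 169.6 and 185 in the UVC libraries and 391 and 401 in the active photolyase libraries. It fell 1.71-fold after UVC (log2 -0.77, SE 0.064, edgeR adjusted p = 6.43e-08) and was 2.23-fold higher with active photolyase than after UVC (log2 1.16, SE 0.065, adjusted p = 1.44e-09), both under all 5 scalings. OAS1 and OAS3 instead rose after UVC, by 0.40 and 0.24. OAS2 fell by 0.29 under TMM and was 0.13 higher with library totals, where it was not called. OAS1 and OAS2 rose between UVC and active photolyase by 0.46 and 0.74, and OAS3 did not pass the test there (-0.00, adjusted p = 0.981). All 4 rose against control with active photolyase, by 0.24 to 0.86.

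MX1 and MX2 are dynamin-like GTPases that trap viral nucleocapsids, RSAD2 (viperin) makes a chain-terminating nucleotide, and CMPK2 supplies its substrate. All 4 fell after UVC under TMM. MX1 stood at 120 and 162 scaled cRPKM in the control libraries, 79.2 and 79.1 in the UVC libraries and 178 and 211 in the active photolyase libraries, with no overlap. Its fall after UVC was 1.78-fold (log2 -0.83, SE 0.11, edgeR adjusted p = 7.29e-06) and was called under all 5 scalings.

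RSAD2 stood at 56.4 and 75.1 in the control libraries, 44.1 and 49.9 in the UVC libraries and 126 and 144 in the active photolyase libraries. It rose 2.87-fold between UVC and active photolyase (log2 1.52, SE 0.11, edgeR adjusted p = 2.04e-08), second in size among the members to ISG20. MX1, CMPK2 and MX2 rose in that comparison by 1.30, 1.19 and 0.61, and the call for MX2 was lost under at least 1 scaling. The falls of RSAD2 and CMPK2 after UVC (-0.48 and -0.46) shrank to -0.07 and -0.04 with library totals and were not called there. Against control, MX1, RSAD2 and CMPK2 rose with active photolyase by 0.47, 1.04 and 0.73, while MX2, at 42.2 and 61.1 in control and 41.5 and 50.2 with active photolyase, overlapped and did not pass the test (-0.17, adjusted p = 0.247).

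PARP9 and DTX3L form a complex that adds ubiquitin and ADP-ribose to targets, and PARP14 is a further ADP-ribosyl transferase. PARP9 stood at 82.1 and 89.3 scaled cRPKM in the control libraries, 60.7 and 61.9 in the UVC libraries and 78.2 and 81.6 in the active photolyase libraries. It fell after UVC by 0.48 under TMM (SE 0.055, edgeR adjusted p = 1.72e-06), with -0.07 and no call under library totals. Against control with active photolyase it was at -0.10 (adjusted p = 0.12), and its sign in that comparison differed between scalings. DTX3L, which shares the ISRE match with PARP9, stood at 51.2 and 61.3 in the control libraries, 41.7 and 42.4 in the UVC libraries and 72.4 and 76.6 in the active photolyase libraries. DTX3L fell by 0.42 after UVC under TMM and was at 0.00 with library totals. It was 1.77-fold higher with active photolyase than after UVC (log2 0.82, SE 0.072, adjusted p = 1.86e-07), under all 5 scalings. PARP14 rose after UVC by 0.27 (adjusted p = 0.0116) and did not pass the test between UVC and active photolyase (0.11, with the opposite sign under library totals). Against control DTX3L and PARP14 rose with active photolyase by 0.41 and 0.39.

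Of the 9 other effectors, 4 rose and 4 fell after UVC, near the 42.5% and 43.1% of all genes, and 6 rose and 1 fell between UVC and active photolyase (39.2% and 39.9% of all genes). With library totals the counts were 5 and 2, and 5 and 3. ISG20, an exonuclease that degrades RNA, stood at 126 and 146 scaled cRPKM in the control libraries, 48.1 and 50.6 in the UVC libraries and 185 and 181 in the active photolyase libraries. It showed the deepest fall after UVC among the members (2.74-fold, log2 -1.46, SE 0.067, edgeR adjusted p = 1.13e-10) and the highest rise between UVC and active photolyase (3.70-fold, log2 1.89, SE 0.068, adjusted p = 1.36e-11). SAMD9, a restriction factor for poxviruses, stood at 177 and 196 in the control libraries, 88.1 and 88.9 in the UVC libraries and 215 and 216 in the active photolyase libraries. It fell 2.10-fold after UVC (log2 -1.07, SE 0.058, edgeR adjusted p = 6.54e-10) and was 2.44-fold higher with active photolyase than after UVC (adjusted p = 1.6e-10). Both genes kept these calls under all 5 scalings, and neither had overlapping groups.

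IFI44 and IFI44L are related genes of the interferon response and lie next to each other, yet their levels differed: IFI44 averaged 49.6 ± 8.16 scaled cRPKM in control, 69.3 ± 4.19 in the UVC group and 112 ± 8.08 in the active photolyase group (SD, n = 2), and IFI44L 6.18 ± 1.64, 11.7 ± 0.24 and 11.4 ± 1.12. Both rose after UVC (0.48 and 0.92), but between UVC and active photolyase IFI44 rose by 0.69 and IFI44L did not pass the test (-0.03, adjusted p = 0.806). IFI35, a partner of the signalling protein NMI, rose after UVC by 0.59. EPSTI1 rose by 0.39 after UVC and was the only effector in this group to fall between UVC and active photolyase (-0.28, adjusted p = 0.00605). TRIM21, a cytosolic antibody receptor, and SAMD9L fell after UVC under TMM (-0.39 and -0.42), were near 0 with library totals, and rose between UVC and active photolyase by 1.07 and 0.77. XAF1, a promoter of cell death, did not pass the test after UVC (-0.21) and rose by 0.32 between UVC and active photolyase. With library totals XAF1 was called higher after UVC (0.21) and was not called between UVC and active photolyase (0.02). Against control 7 of the 9 rose with active photolyase, the others being XAF1 (0.11, adjusted p = 0.3) and EPSTI1 (0.11, adjusted p = 0.274), which were called higher with library totals.

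Several of the smaller changes rested on single libraries, mostly control replicate 1, in which the members were low. Without it, the rises of OAS3, HERC5 and PARP14 after UVC were no longer called (log2 0.11, 0.10 and 0.11), the rise of EPSTI1 shrank from 0.39 to 0.24, and IFIT1, IFIT3 and XAF1 were called lower (-0.29, -0.26 and -0.40). Without control replicate 2, the falls of OAS2, MX2, RSAD2, CMPK2, USP18 and SAMD9L after UVC shrank to -0.15, -0.49, -0.26, -0.24, -0.41 and -0.26. PARP14 and HERC5 rose by 0.46 and 0.50 without that library and OAS3 by 0.38, and calls were lost for OAS3 (0.19) and PARP14 (0.27) without UVC replicate 1 and for HERC5 (0.21) and PARP14 (0.28) without UVC replicate 2. Against control with active photolyase, leaving out control replicate 1 ended the call for OAS3 (0.11), brought MX1, STAT2, PARP14 and SAMD9L to 0.27, 0.15, 0.22 and 0.21, and gave 2 members that were lower, MX2 (-0.41) and PARP9 (-0.16). Without control replicate 2, XAF1 (0.33) and EPSTI1 (0.28) were called higher, STAT2 stood at 0.65 and OAS3 at 0.38, and without active photolyase replicate 2 the OAS3 call was lost (0.22).

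Between UVC and active photolyase, the falls of IFITM3 and EPSTI1 were not called without active photolyase replicate 1 (-0.13 and -0.23), and IFITM3 stood at -0.34 without active photolyase replicate 2. EPSTI1 also lost its call without UVC replicate 2 (-0.26). The rises of STAT2 and XAF1 lost their calls without UVC replicate 1 (0.37 and 0.31) and without active photolyase replicate 2 (0.25 and 0.25), and STAT2 also without UVC replicate 2 (0.31). ISG15, IFITM1, IRF1 and PARP14 were called in that comparison when either control library was left out of the shared estimate of spread (-0.12, -0.15, -0.16 and 0.11), and IFITM1 (-0.28) and IFI35 (-0.17) were called lower without active photolyase replicate 2.

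The genes upstream of the members did not move as 1 block. Interferon beta (IFNB1) stood at 1.39 and 1.11 scaled cRPKM in the control libraries, 23.1 and 20.4 in the UVC libraries and 9.51 and 7.93 in the active photolyase libraries, a 17.4-fold rise after UVC (log2 4.12, SE 0.14, edgeR adjusted p = 4.7e-12). It was 2.50-fold lower with active photolyase than after UVC (adjusted p = 5.3e-08). Of 6 ligands, 4 rose and 1 fell after UVC, and 1 rose and 4 fell between UVC and active photolyase. Of all genes, 42.5% and 43.1%, and 39.2% and 39.9%, did so. With library totals the ligand counts were 4 and 0, and 1 and 4. The lambda interferons had the same order: IFNL1 averaged 10.5, 87.8 and 42.4 in control, UVC and active photolyase, and IFNL2 9.44, 135 and 56.7. IFNL3 stood at 3.00, 48.7 and 24.3, with as few as 5 reads in a library. IFNK was instead highest with active photolyase, at 1.90, 1.22 and 4.68, and IFNE in control, at 2.01, 1.35 and 1.07. IFNB1 and the lambda genes were highest after UVC, whereas 26 of the 39 members were highest with active photolyase under TMM.

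Of 11 genes for receptors and JAK-STAT signalling, 4 rose and 5 fell after UVC, 4 rose and 7 fell between UVC and active photolyase, and 3 rose and 4 fell between control and active photolyase. Of all genes, 42.5% and 43.1%, 39.2% and 39.9%, and 33% and 32.9% did so. With library totals the counts were 7 and 2, 2 and 7, and 4 and 3. IFNLR1, the specific chain of the lambda interferon receptor, stood at 4.43 and 4.66 in the control libraries, 1.86 and 1.78 in the UVC libraries and 8.13 and 8.10 in the active photolyase libraries. It fell 2.50-fold after UVC (edgeR adjusted p = 4.56e-10) and was 4.46-fold higher with active photolyase than after UVC (adjusted p = 3.49e-12). Its partner chain IL10RB rose after UVC by 0.68, as did the type I receptor chain IFNAR1 by 0.32. The other type I chain, IFNAR2, was lower after UVC (-0.25, edgeR adjusted p = 0.0143), and with library totals it was at 0.17 and not called. That call was also lost without UVC replicate 2 (-0.18). Of the kinases, TYK2 rose after UVC (0.98) and JAK1 fell under TMM (-0.44, not called with library totals).

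Of 12 negative regulators, 2 rose and 8 fell after UVC, and 10 rose and 2 fell between UVC and active photolyase, where the shares of all genes were 42.5% and 43.1%, and 39.2% and 39.9%. With library totals the counts were 4 and 7, and 7 and 3. Those that rose after UVC were SOCS3, a feedback inhibitor of cytokine receptors, by 1.31 in log2, and PTPN6, a phosphatase, 2.38-fold, and both fell between UVC and active photolyase (-0.71 and -0.97). SOCS1, the main feedback inhibitor of interferon signalling and itself an interferon-stimulated gene, stood at 39.4 and 38.3 in the control libraries, 36.8 and 36.0 in the UVC libraries and 68.2 and 68.0 in the active photolyase libraries. It rose between UVC and active photolyase by 0.90 (SE 0.050, edgeR adjusted p = 1.3e-09). PTPN1, a phosphatase that acts on JAK kinases, fell 3.50-fold after UVC, and IRF2, a repressor at ISREs, fell 2.31-fold. IRF3, the sensor-activated factor that starts interferon beta transcription, rose after UVC by 0.45.

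Of a further 48 interferon-stimulated genes outside the 39, 20 rose and 21 fell after UVC (median -0.01), 31 rose and 11 fell between UVC and active photolyase (median 0.48), and 36 rose and 2 fell between control and active photolyase (median 0.41). The counts after UVC were near the share of all genes (42.5% and 43.1%), and those for the other comparisons stood against 39.2% and 39.9%, and 33% and 32.9%. With library totals 28 rose and 14 fell after UVC (median 0.41), 24 rose and 17 fell between UVC and active photolyase (median 0.18), and 40 rose and 2 fell between control and active photolyase (median 0.52). Those of smallest p that rose after UVC were TRAFD1, a feedback regulator (1.74), TNFSF10, the death ligand TRAIL (1.51), and CXCL10, a chemokine (1.73). Those that fell were TRIM38 (-1.01), DDX60 (-1.39) and ZNFX1 (-1.48), the last pair being RNA helicases of antiviral sensing. Between UVC and active photolyase, GBP1 (1.18), ZNFX1 (1.74) and TRIM26 (1.14) rose, and TRAFD1 (-0.80) and TNFSF10 (-0.74) fell. The 2 that were lower than control with active photolyase were DDX60 (-0.64) and RIGI, the RNA sensor RIG-I (-0.45, and -0.29 without control replicate 2). TRAFD1, CXCL10 and RTP4 rose there by 0.94, 1.47 and 1.00.

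Direction after UVC went with effective length, among the members as among all genes. Effective length was taken from the ratio of the deposited count to the deposited cRPKM. The span of a gene in the genome was not used. Of the 13 shortest members (339 to 1789 bases), 10 rose and 2 fell after UVC, with a median of 0.61, and of all genes in that length range 58% rose and 26.1% fell, with a median of 0.32. Of the middle 13 (1807 to 3250 bases), 5 rose and 6 fell, with medians of -0.11 for the members and 0.00 for all genes, of which 42.8% rose and 43.7% fell. Of the 13 longest (3351 to 7746 bases), 3 rose and 8 fell, with medians of -0.42 and -0.36, and 31.1% of all genes in that range rose and 57.2% fell. Spearman's rho between length and log2 fold change was -0.454 over the 39 members and -0.272 over 11925 genes, given as a description across genes that share the same libraries. The part of length in the calls was not tested.

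The 3 long members that rose after UVC were PARP14, the longest at 7746 bases (0.27), OAS3 at 6670 bases (0.24) and HERC5 at 3464 bases (0.29). The 2 short members that fell were USP18 at 1234 bases (-0.62; not called with library totals) and IRF9 at 1789 bases (-0.23; higher with library totals). Between UVC and active photolyase the relation had the other sign, with rho 0.367 over the members and 0.140 over all genes, and 11 of the 13 longest members rose and none fell (48.2% and 35.5% of all genes in that range). Between control and active photolyase, 13, 10 and 12 members of the short, middle and long sets rose and none fell, while all genes in those ranges had medians of 0.16, 0.02 and -0.15, with 45.7%, 33% and 23.8% called higher.

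**Figure D5:**
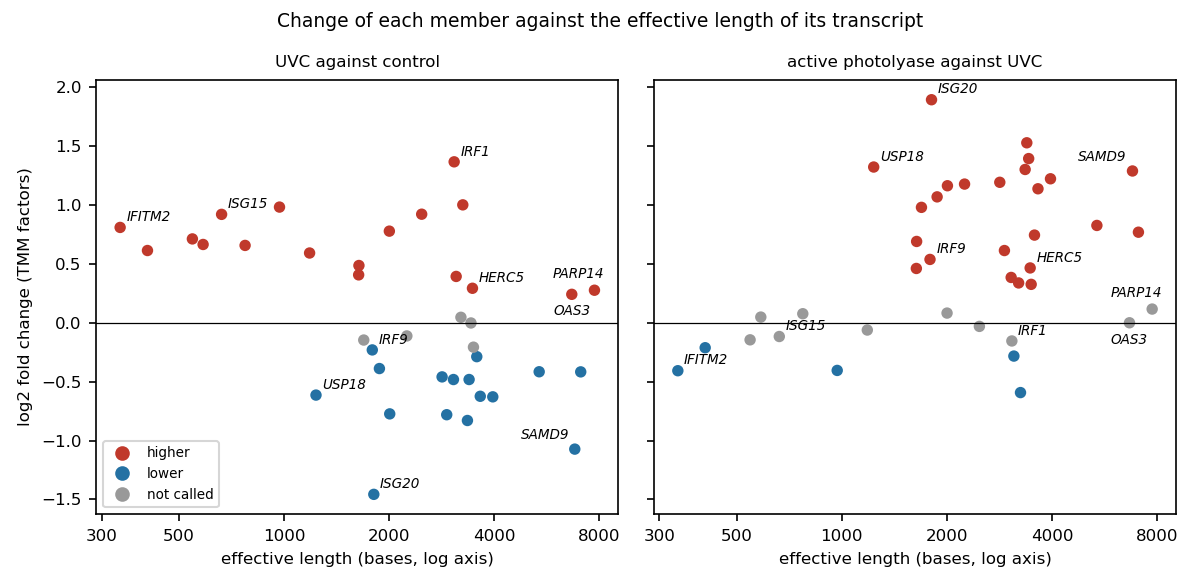
Log2 fold change of each member (TMM factors) against its effective length in bases on a log axis, for UVC against control (left) and active photolyase against UVC (right). Colours give the call. On the left the short members lie mostly above 0 and the long ones mostly below, apart from PARP14, OAS3 and HERC5 above it and USP18 and IRF9 below.

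Many members sit beside each other in the genome, by the order of genes in RefSeq on GRCh38.p14. The clusters are IFIT2, IFIT3, IFIT1 and IFIT5 on chromosome 10, IFITM2, IFITM1 and IFITM3 on 11, OAS1, OAS3 and OAS2 on 12, and PARP9, DTX3L and PARP14 on 3. The pairs are IFI44L and IFI44 on 1, CMPK2 and RSAD2 on 2, HERC6 and HERC5 on 4, SAMD9 and SAMD9L on 7, and MX2 and MX1 on 21. Neighbours took different directions after UVC in the OAS cluster (OAS1 and OAS3 up, OAS2 down under TMM), in the HERC pair (HERC5 up, HERC6 down) and in the PARP cluster (PARP14 up, PARP9 and DTX3L down under TMM). The rises of OAS3, HERC5 and PARP14 shrank to 0.11, 0.10 and 0.11 without control replicate 1. All 3 IFITM genes rose together, as did IFI44 and IFI44L. Both genes fell under TMM in the MX pair, in the pair of CMPK2 and RSAD2 and in the pair of SAMD9 and SAMD9L. In the IFIT cluster only IFIT5 was called under TMM, as lower. Whether the counting used strand is not given in the sources used here, so reads from overlapping genes on opposite strands could not be told apart.

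Members with and without an ISRE match in the window went in both directions after UVC. Of the 22 with a match, 12 rose and 8 fell after UVC (42.5% and 43.1% of all genes), and 20 rose with active photolyase against control (33% of all genes). Of the 9 without, 3 rose and 4 fell after UVC, and 8 rose with active photolyase against control. Of the 8 without a window, the counts were 3, 4 and 7. In the same order, median log2 fold changes after UVC were 0.26, -0.21 and -0.15. Between UVC and active photolyase, 12 rose and 3 fell, 7 rose and 0 fell, and 5 rose and 2 fell (39.2% and 39.9% of all genes). These are calls under TMM, and the sets were not counted with library totals. IFI6 with 3 matches rose after UVC, whereas IFIT5, also with 3, fell.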

How the data were processed

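Per the submitters' processing notes, reads were aligned with Bowtie to hg19; the aligner's version, the rule for counting reads and the annotation were not given in the sources used here. Per library, the authors deposited whole read counts and corrected RPKM values (cRPKM) for 19847 Ensembl genes, 354 of them without values. All 158 symbols looked up matched 1 Ensembl ID each. Counts were tested with edgeR 4.0.16 (R 4.3.3; quasi-likelihood F test, TMM factors from 0.884 to 1.18, 3 group means over all 6 libraries, 3 residual and 10.03 prior degrees of freedom). Genes needed 1 cRPKM in at least 2 libraries, which kept 11926, and p-values were adjusted by Benjamini and Hochberg over all of them. SE is the log2 fold change over the square root of F, and levels are mostly given as both values of a group. The common biological coefficient of variation was 4.62%. Replicate libraries differed by more than counting noise (chi-square per degree of freedom 4.77 to 20.6), and each was counted as 1 sample. Alternatives used limma 3.58.1 and DESeq2 1.42.0. Members may all be named; members given by library are, in each role group, the one of highest mean and of smallest p in the first 2 comparisons; of the 48 further genes, the 3 of smallest p each way were named, except for a gene that is not reported here. Members, lists and tests were chosen with earlier results of these data known.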

Additional observations from a re-analysis of the deposited data

How the results depend on the processing

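Limits first: with 2 libraries a group, leaving one out assumes that the lone library varies like the others, and control replicate 1 and 2 disagree on most members. With library totals, members called lower numbered 7 for UVC against control and 14 for active photolyase against UVC. With limma on deposited log2(cRPKM + 1), (+ 0.1) and (+ 2) they numbered 5, 5 and 5, and 14, 13 and 14, and with limma after median centring 9 and 10. For active photolyase against UVC they numbered 9 with a filter of 5 cRPKM and 8 with only the 4 libraries compared, and for active photolyase against control 1 with no filter. Leaving out 1 library at a time, they ran from 16 to 21, from 3 to 8 and from 0 to 2 in the 3 comparisons; the ends came without control replicate 1 (21, 8 and 2), without control replicate 2 (8) and without active photolyase replicate 1 (3). Members called higher ran from 15 to 24, 19 to 25 and 34 to 37 over all settings.

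Signs that turned for UVC against control, as log2 fold changes with library totals and with limma at pseudocounts 1, 0.1 and 2, were IFIT1 (0.27, 0.27, 0.27, 0.27), IFIT2 (0.41, 0.42, 0.42, 0.42), IFIT3 (0.30, 0.31, 0.31, 0.31), OAS2 (0.13, 0.13, 0.13, 0.13), IRF9 (0.185, 0.18, 0.18, 0.18), XAF1 (0.21, 0.22, 0.22, 0.21), TRIM21 (0.027, 0.029, 0.030, 0.029), DTX3L (0.0001, 0.0036, 0.0038, 0.0035), SOCS1 (0.32, 0.31, 0.32, 0.31) and IFNAR2 (0.17, 0.13, 0.16, 0.11). SAMD9L turned with limma at the 3 pseudocounts (0.0037, 0.0041, 0.0033). After median centring IFIT1 was 0.15, IFIT2 0.29, IFIT3 0.18, IRF9 0.052, OAS2 0.0024, XAF1 0.090, SOCS1 0.19 and IFNAR2 0.0046. With a filter of 5 cRPKM IFIT2 was 0.11, IFIT3 0.0044 and SOCS1 0.026, and with no filter STAT2 was -0.047. IFIT2 was 0.036 with only the 4 libraries compared and 0.0045 with the replicate block. For active photolyase against UVC, with the same 4 settings, IFI27 was -0.26, -0.26, -0.26 and -0.26, IFI6 -0.23, -0.23, -0.23 and -0.23, IRF7 -0.23, -0.22, -0.22 and -0.22, PARP14 -0.19, -0.19, -0.19 and -0.19, and IFNAR2 -0.042, -0.032, -0.039 and -0.027. After centring IFI27 was -0.18, IFI6 -0.14, IRF7 -0.14 and PARP14 -0.10, and with a filter of 5 cRPKM IFI27 was -0.051, IFI6 -0.022 and IRF7 -0.017. With no filter IFI44L was 0.012 and OAS3 0.042, and OAS3 was 0.0005 with DESeq2 size factors and with the DESeq2 Wald test. For active photolyase against control, with the same 4 settings, PARP9 was 0.0093, 0.0092, 0.0093 and 0.0091, TRIM38 0.023, 0.022, 0.022 and 0.021, and IFNAR1 0.053, 0.044, 0.052 and 0.038 (0.0022 after centring), and IFNAR2 was -0.030 with no filter.

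Leaving out 1 library at a time also turned signs. After UVC the values ran from -0.29 to 0.014 for IFIT1, -0.18 to 0.20 for IFIT2, -0.26 to 0.055 for IFIT3, -0.18 to 0.31 for STAT2 and -0.40 to 0.011 for XAF1, each from without control replicate 1 to without control replicate 2. Against control with active photolyase they ran, for the same 2 libraries, from -0.41 to 0.12 for MX2, -0.076 to 0.33 for XAF1 and -0.047 to 0.28 for EPSTI1, and IRF2 ran from -0.0059 to 0.20 without active photolyase replicate 2 or 1. Between UVC and active photolyase they ran from -0.086 to 0.14 for IFI27, -0.0066 to 0.14 for IFI6, -0.17 to 0.064 for IFI44L and -0.061 to 0.051 for OAS3, each lowest without active photolyase replicate 2. Except for the turns by scaling, whose construction moves all genes, the cause was not tested.

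Whether replicate numbers pair the samples is not settled. Over all genes tested, deviations of same-numbered libraries correlated at -0.029 (control and UVC), -0.047 (control and active photolyase) and 0.12 (UVC and active photolyase). These values cover all genes and cannot exclude a pairing that touches the members. Replicate 2 was the higher for 37 of 39 members in control and in active photolyase, and for 20 of 39 in UVC. With the replicate number as a block, 18 members were called higher and 18 lower after UVC. With active photolyase 24 were higher and 6 lower than after UVC, and 35 and 0 against control. IFIT1 (-0.14) and XAF1 (-0.20) gained a call after UVC, and IFITM1 (-0.15) between UVC and active photolyase; the block changed no other member's call.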
